A study of Oryctolagus cuniculus with 4 samples.

Results

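The genes described here make, break down, sense or act beside prostaglandins and steroid hormones in the rabbit blastocyst at day 6. Probes were looked for under 10 gene names by the symbol, accession or description in the array files, and 9 of the 10 had at least 1 probe. They were PTGS1 and PTGS2 (prostaglandin synthesis), HPGD (prostaglandin breakdown), PTGFR (a prostaglandin receptor), PGR and ESR1 (steroid receptors), PPARD and PPARG (nuclear receptors for lipids) and STAR (supply of cholesterol for steroid synthesis). No probe was named PTGES, and that gene was not analysed here. The 9 genes had 14 of the 43603 probes on the array and were compared with 10372 named genes.

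All embryos were New Zealand White rabbit blastocysts of 6 days. Parthenotes came from oocytes activated without sperm, by electrical pulses and then cycloheximide with 6-DMAP, so that both copies of the genome are maternal. They grew in the oviduct and uterus of recipient does, while the fertilised embryos came from does inseminated artificially and had no treatment. Each of 4 two-colour arrays held 1 parthenote pool in Cy3 and 1 fertilised pool in Cy5, each of 7 embryos, and the dyes were swapped on 0 arrays, so that dye and group cannot be told apart. A pool gives 1 value for 7 blastocysts, and fewer cells of a type and less RNA per cell cannot be told apart in it. The labels do not say which pools came from which does, and p-values measure the spread between these pools only.

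Prostaglandins are made from arachidonic acid, which phospholipases free from membranes and the cyclooxygenases PTGS1 and PTGS2 oxidise. Terminal synthases then make prostaglandin E2, F2α, D2, prostacyclin or thromboxane. HPGD oxidises them to forms with little activity. The signals act on receptors of the cell surface, PTGFR being the one for prostaglandin F2α, and some lipids of this family also bind PPARD and PPARG inside the cell. Before implantation the rabbit blastocyst lies free in the uterine fluid, where progesterone from the corpora lutea acts on the endometrium through PGR, and trophoblast prostaglandins are known for their part in implantation. STAR carries cholesterol into mitochondria, the step that limits steroid synthesis.

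Expression is given as the processed signal, in arbitrary units, after background subtraction and dye normalisation within the array. Differences are log2 ratios of parthenote over fertilised on the same array, so that a value of 1 is a doubling. Adjusted p-values are from limma over all 43595 probes tested, and a gene or probe counts as changed where they were under 0.05. Signals of different probes cannot be set against each other, and each gene is described by its brightest probe unless another is named.

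The blastocyst label was checked on marker genes of its lineages. POU5F1, GATA3 and KRT8, of epiblast and trophectoderm, were well above background in all pools. ELF5, of trophectoderm, was not well above background in any pool, and TTR, of primitive endoderm, was so in 1 pool of each group. Genes of maternal tissue also differed between the groups. The summed signal of 7 genes of oviduct and uterine secretory epithelium ranged from 9975 to 35396 in parthenote pools and from 4840 to 8605 in fertilised pools. Of the 7, 5 rose (background 11.6% of named genes). In fertilised pools most of this sum came from WFDC2 (3591 to 5946, with 1577 to 9019 in parthenotes), which did not pass (log2 ratio 0.01). The sum of 8 genes of motile ciliated cells ranged from 1550 to 3937 and from 485 to 634. Of the 8, 5 rose (same background), while the defining gene FOXJ1 was not well above background in any pool. That of 9 stromal and muscle genes ranged from 3628 to 4964 and from 2303 to 3191. Most of it came from TAGLN (3385 to 4656 and 2110 to 2974), the 1 of 9 that changed. COL1A1, ACTA2, PDGFRB and HOXA10 were not well above background in any pool. The sum of 8 leukocyte genes ranged from 735 to 851 and from 507 to 581, with 3 higher, 1 lower and PTPRC and CD3E not well above background in any pool. These 4 sums were higher in every parthenote pool than in any fertilised pool, and their part in the results below was not tested. The sum of 8 trophectoderm genes was too, at 22533 to 31246 against 18600 to 20787, most of it from KRT8, which rose, while GATA2 and DLX3 fell. Of 4 epiblast genes POU5F1 rose, and of 6 primitive endoderm genes COL4A1 rose and AFP fell, and the sums of these 2 lists overlapped between the groups.

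The probes are printed here because they decide what a signal can mean. All are 60 bases long and are given 5′ to 3′ as on the array, with positions as in the array files, which name no genome build. A position longer than the probe is taken to cross an exon junction. The probes for PPARD and PPARG are shown first, since the genes are close relatives. In these 2 lines the capitals mark the longest run shared by both probes, of 17 bases, and 44 of 54 aligned bases (81.5%) were identical.
PPARD, chr12:25500535-25501576, plus strand, across an exon junction: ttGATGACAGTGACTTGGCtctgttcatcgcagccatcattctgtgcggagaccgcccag
PPARG, chr9:11495743-11511575, minus strand, across an exon junction: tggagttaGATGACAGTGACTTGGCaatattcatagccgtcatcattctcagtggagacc

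The HPGD probes overlap and are not independent measurements. Capitals mark the 40 bases that they share.
HPGD, A_04_P077073, chr2:52455423-52455482, minus strand: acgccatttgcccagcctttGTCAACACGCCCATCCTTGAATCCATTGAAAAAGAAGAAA
HPGD, A_04_P077072, chr2:52455403-52455462, minus strand: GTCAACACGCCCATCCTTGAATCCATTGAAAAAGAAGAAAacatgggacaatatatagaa

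The 3 PGR probes lie end to end at bases 2738, 2798 and 2858 of the transcript and share no bases. Each therefore reads another stretch of the same message. Capitals mark the stop codon at the end of the last one.
PGR, A_04_P000368, chr1:115667606-115672424, plus strand, across an exon junction: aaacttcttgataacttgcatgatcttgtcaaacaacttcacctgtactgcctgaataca
PGR, A_04_P000367, chr1:115672425-115672484, plus strand: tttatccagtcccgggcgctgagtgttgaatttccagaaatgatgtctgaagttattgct
PGR, A_04_P000366, chr1:115672485-115672544, plus strand: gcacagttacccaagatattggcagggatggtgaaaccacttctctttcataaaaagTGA

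The probe for STAR also ends on the stop codon, in capitals, and has no position in the array files. That for PTGS2 is the one of its 3 that lies nearest to the start of the transcript, at base 1572.
STAR: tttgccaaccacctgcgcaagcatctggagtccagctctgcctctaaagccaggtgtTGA
PTGS2, A_04_P041862, chr16:83711629-83711688, plus strand: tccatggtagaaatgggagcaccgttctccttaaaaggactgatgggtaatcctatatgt

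In parthenotes, PGR and HPGD rose and PPARD fell, while the other 6 genes did not pass the test. HPGD was 1.48-fold higher and PPARD 1.38-fold lower. PGR was 4.22-fold higher by its measured signals, of which those of fertilised embryos were well above background in 1 pool of 4, so that the size of the fold is uncertain. Of the 14 probes, 4 were called (28.6%), against 20.6% of all probes tested. Counted by gene, 3 of 9 were called (33.3%) against 23.9% of named genes, with 2 higher (background 11.6%) and 1 lower (background 12.3%). With so few members, these shares are not read as a result about the group. The median log2 ratio was -0.16 over the 9 genes and 0 over all named genes. Both groups were detected on every array by 8 of the probes, and neither group on any array by 2, one for HPGD and that for ESR1. The groups did not overlap for 5 of the 14 probes, against 34.8% of all probes.

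**Figure D1:**
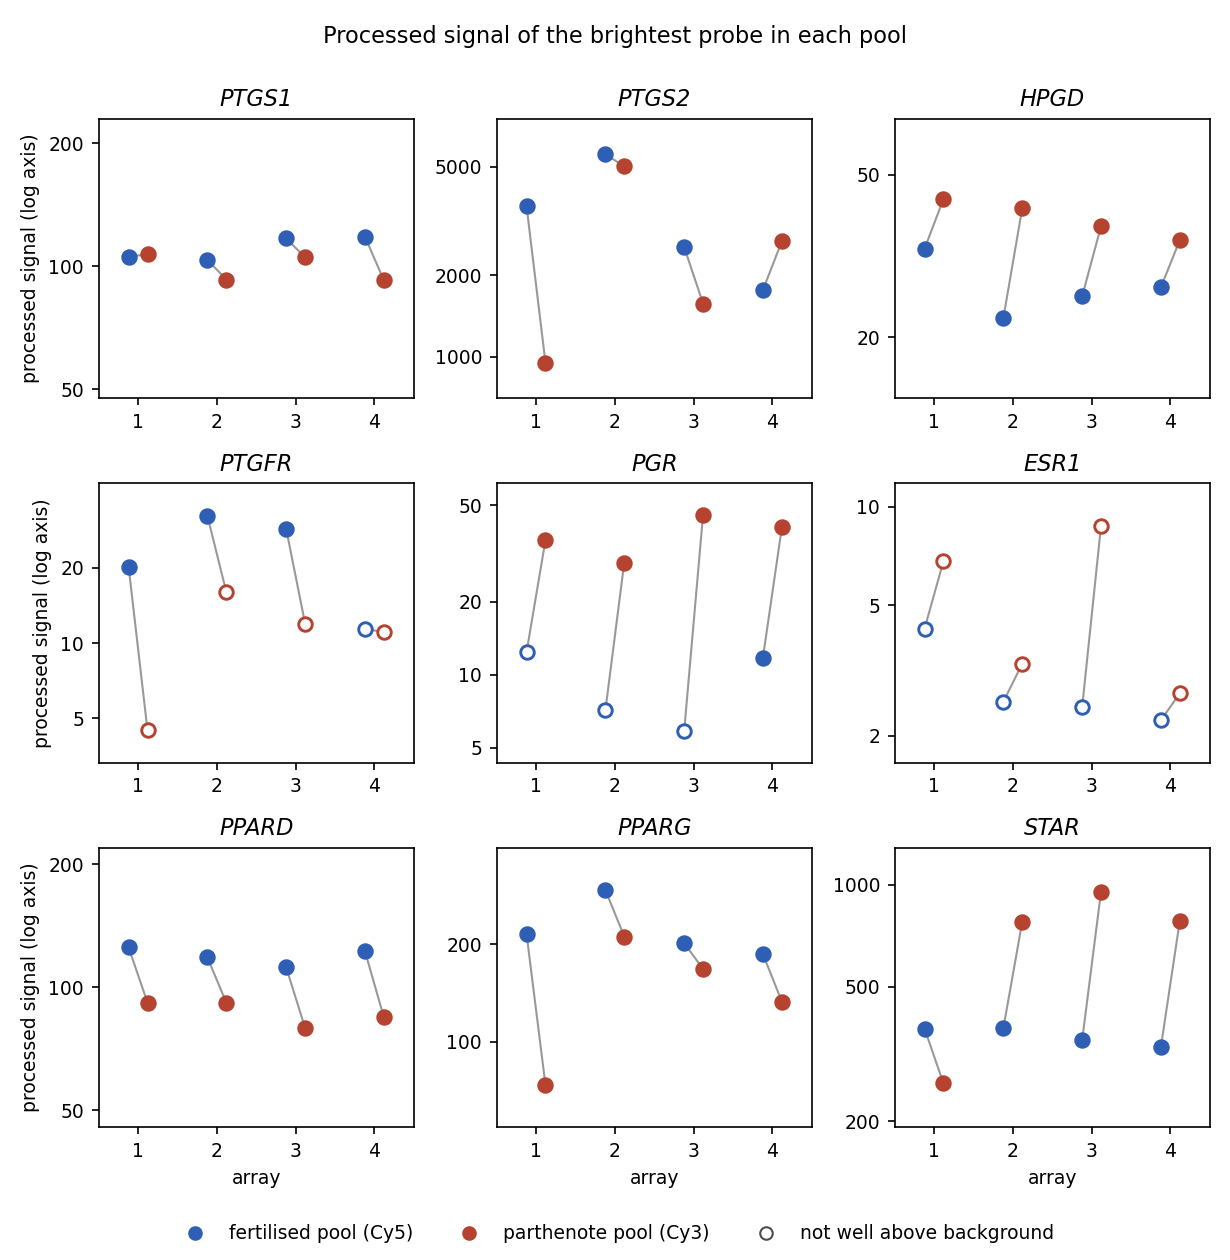
Processed signal (log axis, arbitrary units, own range for each gene) of the brightest probe of the 9 genes on arrays 1 to 4. Points are pools, lines join the 2 pools of an array and open points are not well above background. PGR and HPGD lie higher in all 4 parthenote pools than in any fertilised pool, PPARD lies lower, and PTGS2 varies in both groups.

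PGR, the nuclear receptor for progesterone, rose in parthenotes. Its brightest probe gave signals of 35.9, 29.0, 45.7 and 40.5 in the parthenote pools of arrays 1 to 4. The fertilised pools gave 12.4, 7.12, 5.84 and 11.8. Every parthenote pool was well above background and above every fertilised pool, whereas 1 fertilised pool of 4, that of array 4, was well above background. The log2 ratio was 2.08 ± 0.63 (SD, n = 4 arrays; adjusted p = 0.028), and higher on 4 of 4 arrays.

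The neighbouring PGR probe A_04_P000367 also passed, with a log2 ratio of 1.50 ± 0.62 (SD, n = 4; adjusted p = 0.048), and was detected in the same numbers of pools. The probe A_04_P000368, which crosses the exon junction, had ratios of 0.84, 0.40, 2.09 and 0.80 and did not pass (mean 1.03, adjusted p = 0.130). It was well above background in 2 parthenote pools and in 0 fertilised pools, so no minimum fold is given. All 3 probes were thus higher in parthenotes on each array and highest in ratio on array 3. Array 3 also held the parthenote pool with the highest sums of secretory (35396) and ciliated (3937) marker genes, and the part of these cells was not tested.

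The PGR signal was close to background, and its size depended on the correction. After normexp correction with an offset of 50 and loess, the log2 ratio was 0.43 and did not pass (adjusted p = 0.063). It did not pass without replicate 1 (adjusted p = 0.064), 2 (0.114) or 4 (0.115) either, and passed without replicate 3 (0.045).

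ESR1, a nuclear receptor for oestrogens, was not well above background in any of the 8 pools. Its signals ranged from 2.69 to 8.75 in parthenotes and from 2.23 to 4.24 in fertilised embryos, and no fold is given. Whether it was expressed below this level could not be seen.

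HPGD, which oxidises prostaglandins, rose in parthenotes by a smaller amount. The parthenote pools of arrays 1 to 4 gave 43.6, 41.3, 37.4 and 34.5 and the fertilised pools 32.9, 22.3, 25.1 and 26.5. All 8 pools were well above background and the groups did not overlap. Their log2 ratio averaged 0.56 ± 0.24 (SD, n = 4; 95% interval 0.24 to 0.89; adjusted p = 0.049), and higher on 4 of 4 arrays. Its overlapping probe was not well above background in any pool.

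The HPGD result lay near the threshold. It did not pass after normexp and loess (log2 ratio 0.16, adjusted p = 0.125), nor when any 1 of the 4 replicates was left out, with adjusted p from 0.072 to 0.165. As for PGR, the epithelial marker sums moved with the groups. In the parthenote pools of arrays 1 to 4, HPGD gave 43.6, 41.3, 37.4 and 34.5. The secretory sums of these pools were 9975, 15816, 35396 and 20832, and their ciliated sums 2825, 1550, 3937 and 2587. The part of these cells was not tested.

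PTGS1, the cyclooxygenase present in most tissues, was measured in all 8 pools at 92.3 to 107 in parthenotes and 104 to 118 in fertilised embryos. Its log2 ratio was -0.16 ± 0.15 (SD, n = 4; 95% interval -0.37 to 0.05) and did not pass (adjusted p = 0.216).

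PTGS2, the inducible cyclooxygenase, varied several-fold between pools of the same group. Its brightest probe gave 951, 5017, 1572 and 2662 in the parthenote pools of arrays 1 to 4. The fertilised pools gave 3580, 5566, 2538 and 1763. The groups overlapped, both pools of array 2 were the highest of their group, and the parthenote pool was the lower on arrays 1 to 3 and the higher on array 4. The highest pool was 5.28-fold above the lowest in parthenotes and 3.16-fold in fertilised embryos. The log2 ratio was -0.54 ± 1.06 (SD, n = 4; 95% interval -1.99 to 0.91) and did not pass (adjusted p = 0.523).

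The other PTGS2 probes gave the same order of arrays. The probe A_04_P000851 had ratios of -2.01, -0.06, -0.62 and 0.69 (mean -0.50, adjusted p = 0.577). The probe A_04_P041862, printed above, had ratios of -1.73, -0.61, -1.11 and -0.05 (mean -0.88, adjusted p = 0.167). In all 3 probes the ratio was lowest on array 1 and highest on array 4, so the order did not rest on 1 probe. As a description, the SD of these 3 log2 ratios was larger than that of 98.8% to 99.8% of the 24136 probes that were detected throughout. This was not particular to PTGS2, as the share was 99.4% for STAR and 97.7% for PPARG. Without replicate 1 the mean of the brightest PTGS2 probe was -0.08. After normexp and median centring it passed at a log2 ratio of -1.16, where limma's standard error was 0.17 although the SD over the arrays was 1.01.

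PTGFR, the receptor for prostaglandin F2α, was well above background in the fertilised pools of arrays 1 to 3 and in no parthenote pool. Its signals there were 20.2, 32.3 and 28.7, with 11.4 on array 4, against parthenote values of 4.47, 16.0, 12.0 and 11.0. The 2 pools of array 4 were nearly equal, so that the groups overlapped. Since the 95% interval of the log2 ratio ran from -2.32 to 0.07, no minimum fold is given. The difference did not pass (mean log2 ratio -1.13, SD 0.87, n = 4, adjusted p = 0.153). It was lower on 4 of 4 arrays, but 0.05 above 0 on average after normexp and median centring.

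**Figure D2:**
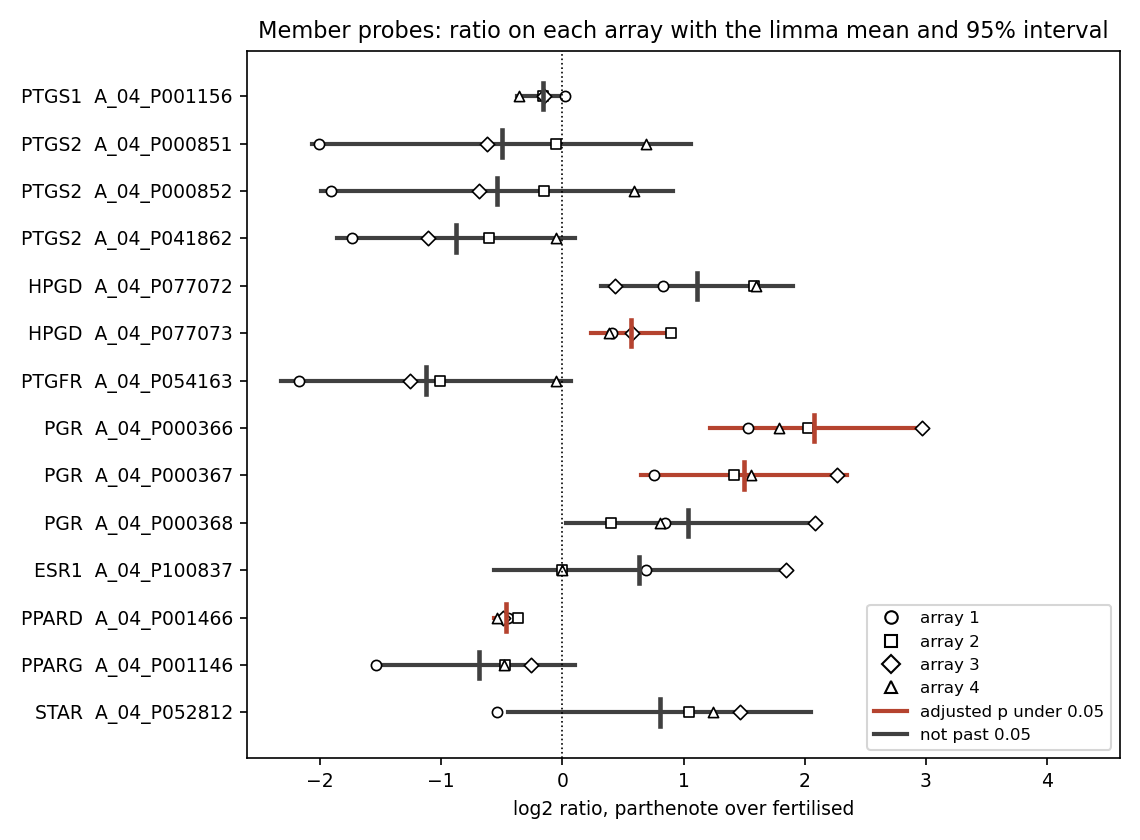
Log2 ratio of parthenote over fertilised for the 14 probes. Symbols are arrays 1 to 4, the vertical tick is the mean and the bar its 95% interval from limma, in red where the adjusted p was under 0.05. The interval of PPARD is narrow (-0.56 to -0.36), while that of the brightest PTGS2 probe runs from -1.99 to 0.91.

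PPARD, a nuclear receptor for fatty acids that is expressed in many tissues, fell in parthenotes. Its signals were 91.7, 91.7, 79.6 and 84.4 in the parthenote pools of arrays 1 to 4. The fertilised pools gave 125, 118, 112 and 123. All pools were well above background and the groups did not overlap. Its log2 ratio was -0.46 ± 0.07 (SD, n = 4; 95% interval -0.56 to -0.36; adjusted p = 0.011), and lower on 4 of 4 arrays. It was the only one of the 9 genes to pass by the methods' t-test (adjusted p = 0.030). After normexp and loess the ratio was -0.21 and did not pass (adjusted p = 0.059), nor did it without replicate 3 (adjusted p = 0.058) or replicate 4 (0.059).

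PPARG, its relative known from fat cells and placenta, was also lower in each parthenote pool than in the fertilised pool of the same array, but did not pass. The parthenote pools of arrays 1 to 4 gave 73.6, 211, 168 and 133. Their fertilised partners gave 214, 293, 201 and 186. The groups overlapped, and array 1 stood apart with a ratio of -1.54 against -0.26 to -0.48 on the others. On average the log2 ratio was -0.69 ± 0.58 (SD, n = 4; adjusted p = 0.173). The probe shares bases with that of PPARD, as printed above, and how far each message bound to the other's probe was not tested. In the normexp and loess fit with repaired local background, chosen after the data were seen, PPARG passed (log2 ratio -0.48, adjusted p = 0.029), as it did after normexp and median centring (-0.69), a setting that called 72.5% of all probes and where limma's standard error for PPARG was 0.117 although the SD over the arrays was 0.46.

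STAR, the mitochondrial cholesterol carrier, was well above background in all pools and differed in direction between arrays. Parthenotes gave 259, 778, 955 and 783 on arrays 1 to 4. Fertilised embryos gave 376, 377, 346 and 332. The fertilised pools lay within 1.14-fold of each other, and the parthenote pools within 3.69-fold. The parthenote pool of array 1 was lower than all fertilised pools and the other 3 were higher than all of them. The log2 ratio was 0.80 ± 0.91 (SD, n = 4; 95% interval -0.45 to 2.05) and did not pass (adjusted p = 0.289). Without replicate 1 it was 1.25 and passed (adjusted p = 0.040).

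The parthenote pool of array 1 had the lowest parthenote signal for PTGS2, PTGFR, PPARG and STAR, and the highest for PTGS1 (107) and HPGD (43.6). CYP19A1, the aromatase that makes oestrogens, was also lowest there, with 16.3 in that pool against 123, 92.7 and 87.0 on arrays 2 to 4. Its fertilised pools lay between 39.7 and 51.7, and its log2 ratio of 0.45 ± 1.29 (SD, n = 4) did not pass (adjusted p = 0.676). The marker genes of that pool did not run one way. The sum of the secretory epithelium genes was its group's lowest, at 9975 against 15816 to 35396, with WFDC2 at 1577 against 5888 to 9019. LCN2 was lowest there too (19.3). OVGP1 (3014), SCGB1A1 (2788), CLU (516) and EHF (62.3) were lowest in the parthenote pool of array 2, and SPP1 (238) in that of array 3. Among trophectoderm genes KRT8 was lowest in the parthenote pool of array 1 (18902 against 21770 to 27439) and GATA3 (1829) and GATA2 (513) were highest. Among epiblast genes GDF3 was lowest (5313 against 9997 to 14917) and POU5F1 (9914), DPPA5 (4244) and LIN28A (475) were highest. The part of these in the result was not tested.

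The rest of these pathways was described with 98 further genes, listed by role, of which 69 had a probe. On their brightest probes, 20 of the 69 were called (29.0%, background 23.9%), 12 higher and 8 lower in parthenotes. This split turned with the scaling. The calls that were higher made up 12 of 15 (80.0%) after normexp and loess and 16 of 48 (33.3%) after normexp and median centring. Over all probes called they made up 46.9% and 46.8% in these settings, and 46.2% as reported. Median centring called 69.6% of the 69 genes and 72.5% of all probes. As reported, the median log2 ratio of the 69 was 0.04, against 0 over all named genes. The counts by role below stand beside a background of 11.6% of named genes higher and 12.3% lower. With so few genes in a role, they are not read as a result about it.

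Of 5 genes that govern the supply of arachidonic acid, 2 rose and 0 fell. ANXA1, an annexin known to restrain phospholipase A2, was 5.39-fold higher. Its signals of 5282 to 7725 in parthenotes lay well above 988 to 1243 in fertilised embryos, and the log2 ratio was 2.43 ± 0.38 (SD, n = 4; adjusted p = 0.011). ANXA2, another annexin, was 1.41-fold higher (adjusted p = 0.031). PLA2G4A, the cytosolic phospholipase A2 itself, had a log2 ratio of -0.93 and did not pass (adjusted p = 0.098).

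Among 6 terminal synthases and reductases, 1 rose. AKR1C5, which in the rabbit reduces prostaglandin E2 to F2α and also acts on progesterone, was well above background in 1 parthenote pool and in 0 fertilised pools. It passed as higher in parthenotes (adjusted p = 0.021), but with so few pools detected no fold is given.

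Of 7 receptors and receptor partners other than PTGFR, 1 rose and 2 fell. PTGER4, a receptor for prostaglandin E2, gave 118, 190, 156 and 143 in the parthenote pools of arrays 1 to 4, and 38.3, 9.07, 10.8 and 13.8 in the fertilised pools. All parthenote pools and 2 fertilised pools were well above background, and the groups did not overlap. The measured log2 ratio was 3.31 ± 1.20 (SD, n = 4; adjusted p = 0.038), uncertain in size for the same reason as that of PGR. Its 6 probes ranged from 0.23 to 4.05 and 3 of them passed.

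PTGER2, another receptor for prostaglandin E2, was 1.88-fold lower (log2 ratio -0.91 ± 0.27, SD, n = 4; adjusted p = 0.028). Its fertilised pools gave 161053 to 188458 and its parthenote pools 75592 to 107608, but 1 of its 6 probes passed and the others reached up to 0.19. TBXA2R, the thromboxane receptor, was well above background in all fertilised pools and in 0 parthenote pools and was at least 1.12-fold lower (adjusted p = 0.025). Beside HPGD, 1 of 5 genes of transport and breakdown changed. SLCO2A1, the carrier that takes prostaglandins into cells, fell with a log2 ratio of -0.53 ± 0.11 (SD, n = 4; adjusted p = 0.016).

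**Figure D3:**
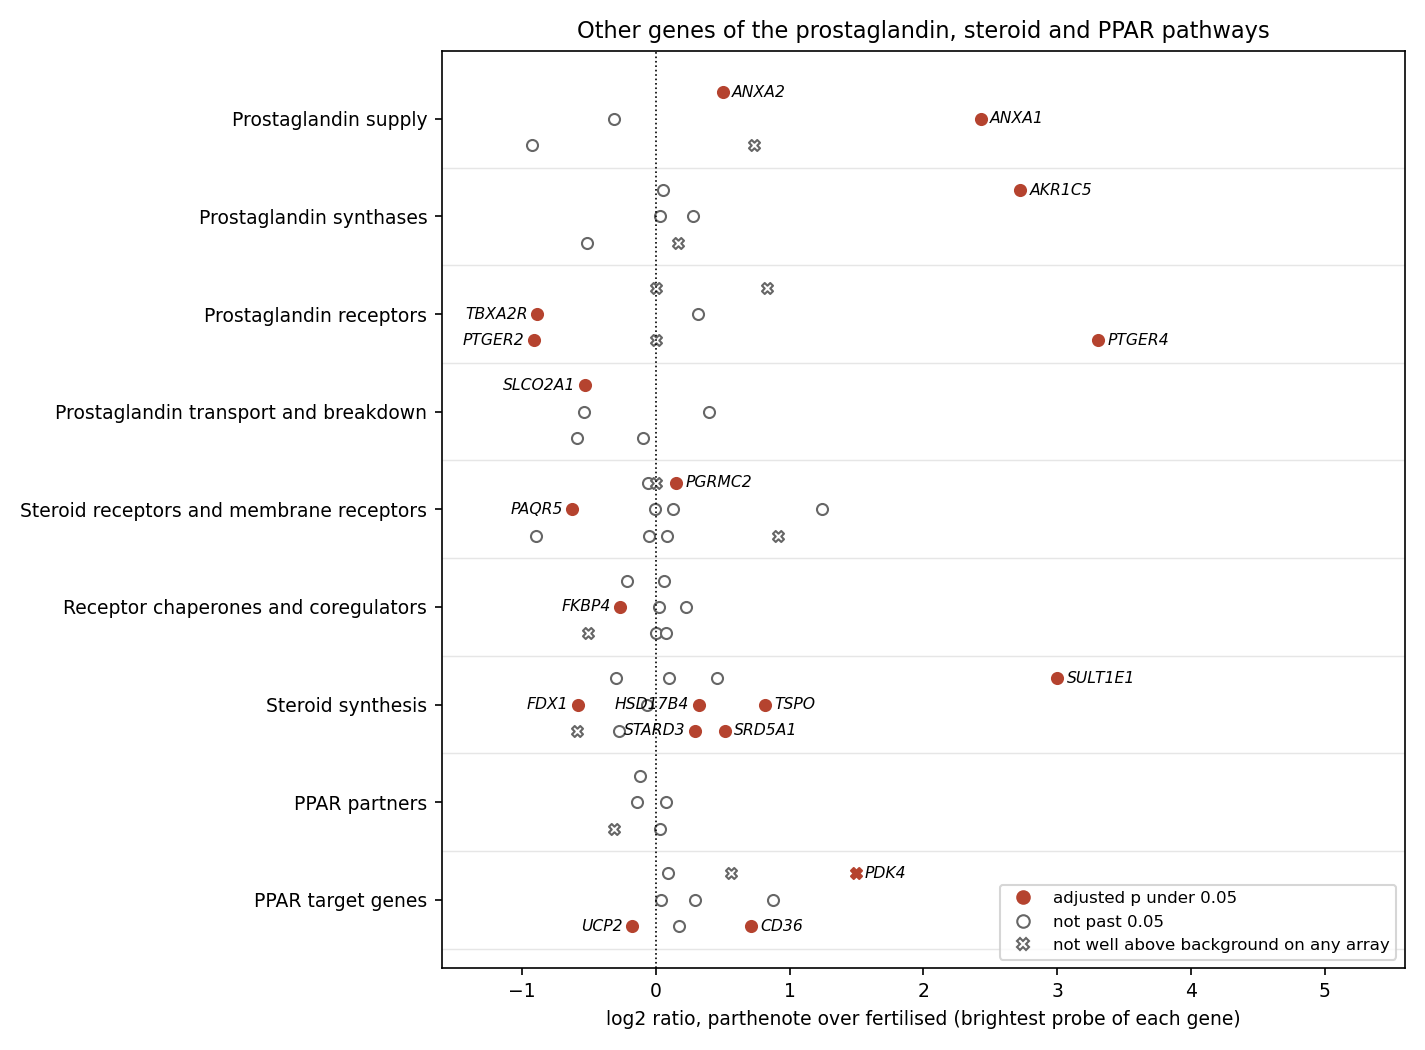
Log2 ratio of parthenote over fertilised on the brightest probe of other pathway genes, with one row of the axis per role. Filled red points passed at an adjusted p under 0.05 and are named, and crosses were not well above background on any array. SULT1E1 (3.00) and ANXA1 (2.43) were detected in all pools, while the points of PTGER4 and AKR1C5 rest on fertilised pools of which 2 and 0 were well above background.

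Other steroid receptors changed in both directions. Of 11 nuclear and membrane receptors, PGRMC2, a membrane protein that binds progesterone, was 1.11-fold higher (adjusted p = 0.033). PAQR5, a membrane progesterone receptor, was 1.54-fold lower on its brightest probe (log2 ratio -0.62 ± 0.19, SD, n = 4; adjusted p = 0.030), and all 5 of its probes passed, from -0.80 to -0.62. ESR2, the second nuclear oestrogen receptor, was not well above background in any pool. Of 8 chaperones and coregulators 1 changed, FKBP4, a co-chaperone of steroid receptors, which was 1.20-fold lower (adjusted p = 0.047).

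Beside STAR, 5 of 12 genes of steroid synthesis and conversion rose (background 11.6%) and 1 fell (background 12.3%). SULT1E1, which sulphates and so inactivates oestrogens, gave 5678, 2414, 2202 and 2589 in the parthenote pools and 421, 413, 384 and 285 in the fertilised pools. All 3 of its probes passed, and the brightest had a log2 ratio of 3.00 (± 0.59, SD, n = 4; adjusted p = 0.015). TSPO, a protein of the outer mitochondrial membrane long tied to cholesterol import, was 1.76-fold higher (adjusted p = 0.016), and STARD3, a relative of STAR on endosomes, 1.22-fold higher (adjusted p = 0.014). SRD5A1, which reduces testosterone and progesterone, was 1.43-fold higher with all 5 probes past the threshold (adjusted p = 0.013), and HSD17B4, a peroxisomal enzyme that also oxidises oestradiol, 1.25-fold higher (adjusted p = 0.013). FDX1, the ferredoxin that passes electrons to mitochondrial steroid enzymes, was 1.50-fold lower on its brightest probe (adjusted p = 0.024), and all 4 of its probes passed. Among the parthenote pools, SULT1E1 was highest on array 1 (5678) and lowest on array 3 (2202). ANXA1 was highest on array 1 (7725) and lowest on array 2 (5282). PTGER4 was highest on array 2 (190) and lowest on array 1 (118). The parthenote secretory sums of arrays 1 to 4 were 9975, 15816, 35396 and 20832. Their ciliated sums were 2825, 1550, 3937 and 2587. As with PGR and HPGD, the part of maternal epithelial RNA in SULT1E1, PTGER4 and ANXA1 was not tested.

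Around PPARD and PPARG, 0 of 5 partner genes passed by limma, with 1 at an unadjusted p under 0.05 and 0 by the methods' t-test. Of 10 genes known as PPAR targets, 2 rose and 2 fell. CD36, a fatty acid carrier, was 1.64-fold higher (adjusted p = 0.032). UCP2, a mitochondrial carrier, was 1.13-fold lower (adjusted p = 0.035). PDK4, a kinase that restrains glucose oxidation, passed as higher (adjusted p = 0.019) but was not well above background in any pool, so no fold is given. The targets thus moved in both directions.

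**Figure D4:**
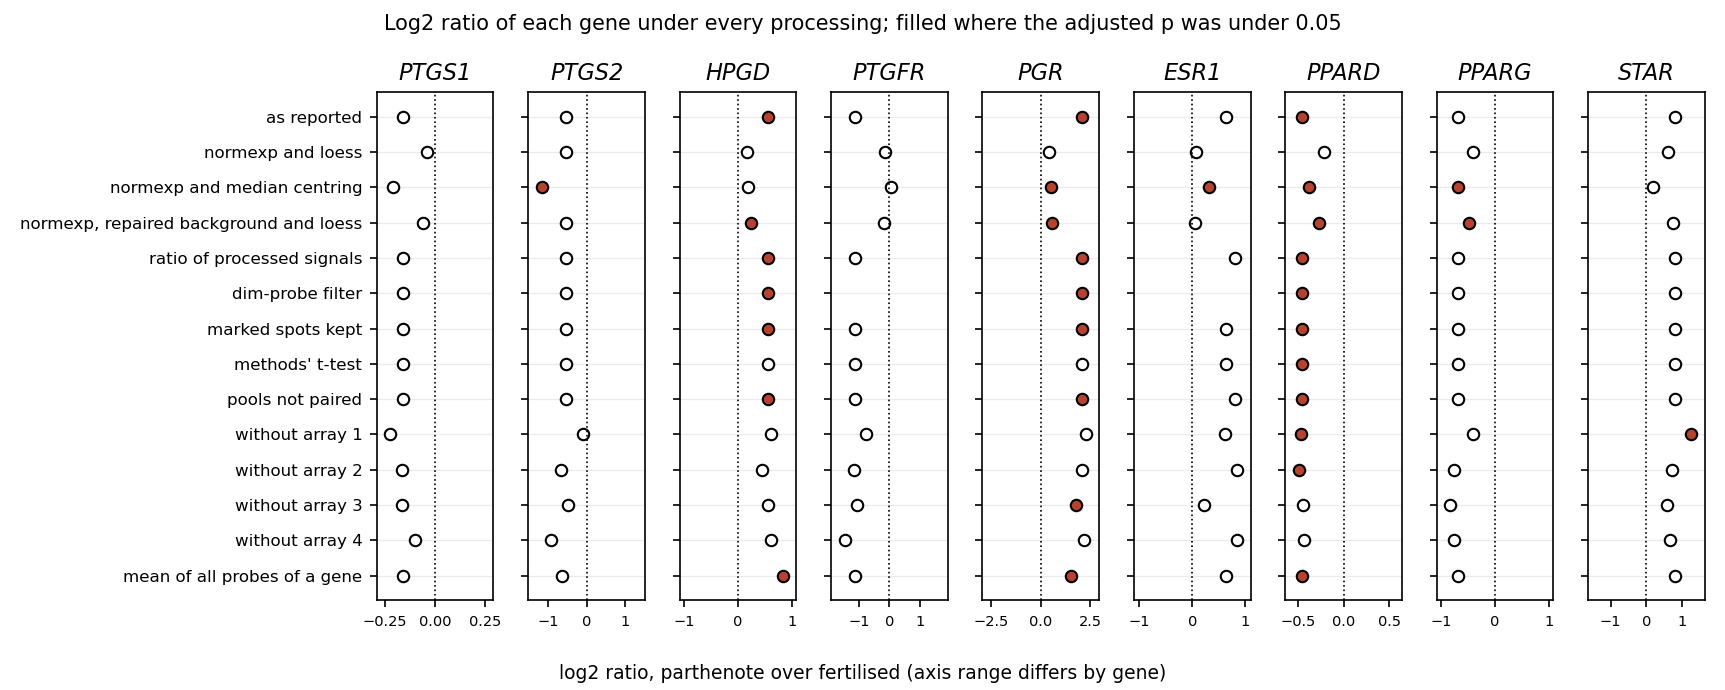
Log2 ratio of parthenote over fertilised for the brightest probe of each gene (for the last setting the mean of its probes), under the reported processing and each alternative except the value table of the series, with its own axis range for each gene. Filled points had an adjusted p under 0.05. HPGD, PGR and PPARD keep their sign throughout, PPARG stays below 0 and PTGFR crosses it under 1 setting (0.05).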

How the data were processed

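RNA of 4 parthenote and 4 fertilised pools was measured on 4 Agilent arrays, grouped by their labels. The authors extracted the spots with Agilent Feature Extraction 10.10.1.1 (per the labels). The deposited mean and local background intensities are not normalised. The deposited processed intensity has its background subtracted and its dyes normalised, and the deposited log10 ratio is that of processed Cy5 over Cy3, 0 where both are surrogates. The authors' value table holds the same log10 ratio with its sign turned.

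Here the ratios were turned to log2 of parthenote over fertilised. Control spots and those marked as outliers (26 to 48 an array) were left out, and repeated spots were averaged. Probes with values on at least 3 arrays were tested against 0 with limma 3.58.1 in R 4.3.3 (lmFit, eBayes, two-sided) with Benjamini-Hochberg adjustment. The code was tested on simulated data. Detection is Feature Extraction's call of well above background, made on each array for 25805 to 26339 spots in Cy3 and 27508 to 27835 in Cy5. The number of arrays limits the precision.

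The ratio pairs the pools of an array. Over 24117 probes detected throughout, deviations from the group mean correlated by 0.45, 0.48, 0.41 and 0.39 within arrays 1 to 4 and by -0.19 to -0.10 on average with other arrays. Bounds ("at least") compare the brighter group's mean with the other group's, set on each array to the lowest signal among detected probes where that was higher, after normexp, loess and Aquantile. They are open to dye bias and carry no error of their own. A bound is given only where the brighter group was well above background in all its pools and the difference passed.

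A gene symbol was found for 23401 of the 43603 probes, from a RefSeq accession (13253), a gene identifier (9238), another probe of the transcript (489), or a current (404) or older (17) symbol. Accessions were matched to the RefSeq genes of mOryCun1.1, used for names only. PPARG was found by its accession. A gene was read by the probe with the highest mean log2 signal of the 8 pools. All member genes were named with every probe. Every pathway gene past the threshold may be named, with the largest change in each direction of a list, and from marker lists the brightest and most changed genes. CYP19A1, PLA2G4A, ESR2, TTR, the undetected markers and the markers compared in the parthenote pool of array 1 were named after their values were seen. Of the pathway genes called, 1 is counted but neither named nor plotted, and is not reported here. Members and lists were chosen with earlier results of these data known.

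Alternatives were normexp (offset 50) with loess or median centring, the ratio of processed intensities, the value table, a filter on dim probes, marked spots kept, the methods' t-test, unpaired pools, each replicate left out and the mean of a gene's probes. After the data were seen, normexp and loess with repaired local background (values over 4 times the array's median set to it) was added. Tables were read in Python 3.11.15 (pandas 2.3.3, numpy 2.4.6) and R (data.table, version 1.17.8) and plotted with matplotlib 3.10.9.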

Additional observations from a re-analysis of the deposited data

Results flagged for a closer look

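For STAR, the parthenote pool of array 1 lay apart from the other parthenote pools, with a log2 signal of 8.01 and a gap to the nearest pool of 0.843 of the group's range, past Dixon's critical value. Of 42 sets of 4 values examined over the 14 probes (both groups' signals and the ratio), 1 lay apart in this way, where chance gives about 2.1. The marker genes of that pool stand beside the STAR result.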

How the results depend on the processing

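Of the 14 probes, 4 were called as reported, 0 after normexp and loess (8 at an unadjusted p under 0.05 by limma), 10 after normexp and median centring, and 1 by the methods' t-test. By gene these counts were 3, 0 (4 at an unadjusted p under 0.05), 5 and 1. With the repaired local background, chosen after seeing the data, 8 probes were called, and the genes were HPGD, PGR, PPARD and PPARG. That setting also called more of all probes, 13085 of 43595 against 8996 as reported. The pathway genes called went from 20 to 48 with median centring, to 40 with the ratio of processed signals and to 10 by the methods' t-test. Over all probes the count went from 8996 to 31610, 21399 and 4435 in the same settings.

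The fit with the pools not paired used the processed signals, not the deposited ratio, which is 0 where both channels are surrogates. It called 16358 of all probes, 68.0% of them higher in parthenotes. The paired ratio of the same processed signals called 21399, with 65.0% higher, and the reported fit 8996, with 46.2% higher. With the pools not paired, the pathway genes called were 30 and the member probes 6 (40 and 6 by the paired ratio of processed signals). The member genes called were HPGD, PGR and PPARD.

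With each replicate left out in turn, 0 to 2 member probes, 0 to 2 member genes, 0 to 15 pathway genes and 1239 to 5735 of all probes were called, from 3 arrays. The 0 for members came without replicate 4 (6 probes and 4 genes at an unadjusted p under 0.05) and the 0 for pathway genes without replicate 2 (31 at an unadjusted p under 0.05). The sign of 2 ratios that were not called turned, that of PTGFR after normexp and median centring (0.046) and that of the PTGS2 probe A_04_P000851 without replicate 1 (0.0030, with -0.90 as the lowest when another was left out). The causes were not tested. HPGD, PGR and PPARD kept their sign in all settings run. The value table holds the same ratios and says nothing about stability. Signal over background limits PGR, PTGFR, ESR1 and the second HPGD probe.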
